A study of Nothobranchius furzeri with 8 samples.

Results

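Vertebrate mitochondria make their own proteins with tRNAs encoded in the mitochondrial genome. Most of these tRNAs are cut out of long transcripts in which they lie between the rRNA and protein genes, and are then given a 3′ CCA tail and an amino acid. The tRNAs for phenylalanine, valine, leucine (UUR codons), isoleucine and methionine lie near the start of the transcript read from the heavy strand, beside the ribosomal RNAs and the genes of the complex I subunits ND1 and ND2. Their levels and charging were compared between old and young brains of the turquoise killifish (Nothobranchius furzeri), a short-lived fish used to study ageing.

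The 5 tRNAs were chosen by name, as mito_tRNA-Phe-GAA, mito_tRNA-Val-TAC, mito_tRNA-Leu-TAA, mito_tRNA-Ile-GAT and mito_tRNA-Met-CAT, from 23 mitochondrial anticodons among 72 in all, of which 49 were nuclear. The samples were 4 brains of old fish (39 weeks post hatching, wph) and 4 of young fish (5 wph), with 2 males and 2 females at each age. The study's methods give the strain as MZM-0410 and describe brains collected fish by fish, with no genetic change or treatment. In the RefSeq annotation of the species the mitochondrial genes up to ND2 run as tRNA, rRNA, tRNA, rRNA, tRNA, ND1, 3 tRNAs and ND2. Amino acids and strand are not given there, so the placing of the 5 within that order is background, as is the heavy strand. The tables hold tRNAs alone, so the labelled tissue was not checked against brain markers.

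Libraries held 1539158 to 3112101 tRNA reads in old brains and 717858 to 2683877 in young brains, young male 2 being the shallowest. Mitochondrial tRNAs took 8.27 to 9.995% of them in old brains and 7.78 to 8.73% in young brains. A spike-in of synthetic bacterial tRNA-Lys mixed forms ending in CCA and in CC. Of its CCA and CC reads, 77.6 to 80.3% ended in CCA in old brains and 76.8 to 77.6% in young brains. It was added after the chemical steps that mark charging, so this share does not measure charging.

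The 5 tRNAs together carried a large part of the mitochondrial tRNA reads. Their summed share was 35.4% ± 1.39 in old brains and 34.0% ± 0.760 in young brains (SD, n = 4 each). The 5 were far from equal, and their order was nearly the same in every brain. mito_tRNA-Val-TAC was the most abundant of the 23 mitochondrial anticodons in 8 of 8 brains. mito_tRNA-Phe-GAA ranked 2 to 3 and mito_tRNA-Leu-TAA 2 to 4. mito_tRNA-Ile-GAT ranked 7 to 10 and mito_tRNA-Met-CAT was at rank 22 in every brain. The Phe tRNA was above the Leu tRNA in 6 of 8 brains, and their ranges overlapped. The other neighbours in the order, Val above Phe, Leu above Ile and Ile above Met, kept their places in 8 of 8. The Ile tRNA had 25.0 to 54.6 times the reads of the Met tRNA in the same brain. Read shares also carry how well each tRNA was copied and mapped, so these orders compare reads and not molecules.

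mito_tRNA-Met-CAT was the one tRNA of the 5 that passed the abundance test, with a higher share in old brains. In vertebrates this tRNA serves both the start codon, as formylmethionyl-tRNA, and internal methionine codons. It took 0.206, 0.151, 0.139 and 0.148% of the mitochondrial reads in old male 1, old male 2, old female 1 and old female 2, against 0.103, 0.118, 0.0983 and 0.118% in young male 1, young male 2, young female 1 and young female 2. Every old brain was above every young brain, and old male 1 stood highest. Of 69 anticodons 29% had shares that did not overlap between the ages. The mean was 0.161% ± 0.0307 in old brains and 0.109% ± 0.0102 in young brains (SD, n = 4 each), a ratio of 1.47. The edgeR log2 change, old over young, was 0.58 ± 0.16 (SE, adjusted p = 0.0211).

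Over all 69 anticodons tested, 13% were called higher in old brains, 9 in number, and of the 5 tRNAs here it was 1. The call did not hold throughout. It was lost with brains matched by sex and number (adjusted p = 0.0628 in edgeR), without young male 1 (adjusted p = 0.0899 in edgeR), without young female 1 (adjusted p = 0.0751 in edgeR) and in an exact permutation test of the share (adjusted p = 0.0986). In that exact permutation test the Met tRNA had p = 0.0286, the smallest it can give. It called 0 of 69 anticodons, so it could not decide the call. Over the 16 alternatives the change of the Met tRNA lay between 0.43 and 0.68. The Met tRNA also rested on few reads, 469, 192, 329 and 417 in the old brains and 236, 66, 161 and 202 in the young brains in the same sample order.

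**Figure D1:**
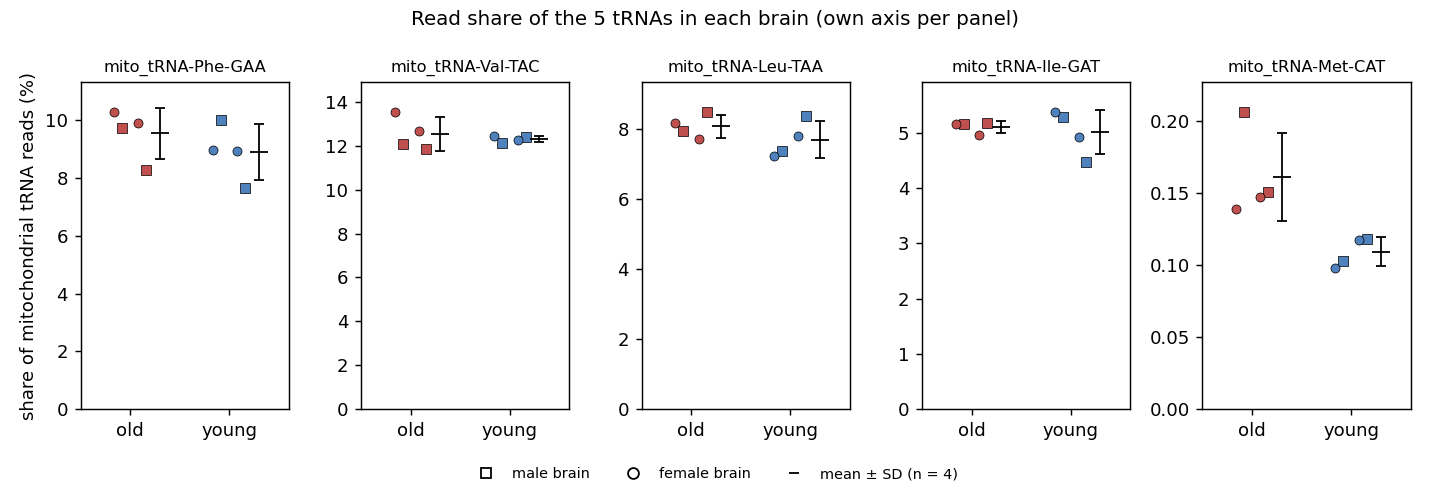
Share of mitochondrial tRNA reads (%, own axis from 0 in each panel) of the 5 tRNAs, with 1 point per brain, squares for males, circles for females, and the mean ± SD (n = 4). The old and young points overlap in the first 4 panels, and all 4 old brains lie above all 4 young brains for mito_tRNA-Met-CAT.

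The other 4 tRNAs did not pass the abundance test. mito_tRNA-Phe-GAA, the tRNA that opens the heavy-strand transcript in vertebrates, took 9.74, 8.28, 10.3 and 9.89% of mitochondrial reads in the old brains and 10.01, 7.66, 8.98 and 8.94% in the young brains, in the same sample order. Its lowest value at either age was in male 2. On the log2 scale it changed by 0.10 ± 0.09 (SE, edgeR adjusted p = 0.447).

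mito_tRNA-Val-TAC lies between the ribosomal RNAs, and in human mitochondria it is also built into the large ribosomal subunit. Its shares were 12.1, 11.8, 13.5 and 12.7% in the old brains and 12.1, 12.4, 12.4 and 12.3% in the young brains. The young brains were close together and lay within the range of the old brains. Its log2 difference, old over young, was 0.03 ± 0.06 (SE, edgeR adjusted p = 0.778).

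mito_tRNA-Leu-TAA, which reads UUR leucine codons, took 7.93, 8.49, 8.16 and 7.72% in the old brains and 7.37, 8.38, 7.22 and 7.81% in the young brains. Its change on the log2 scale was 0.07 ± 0.07 (SE, edgeR adjusted p = 0.469). mito_tRNA-Ile-GAT, which reads isoleucine codons, took 5.15, 5.17, 5.16 and 4.95% in the old brains and 5.28, 4.48, 5.37 and 4.92% in the young brains. Its change on that scale was 0.03 ± 0.07 (SE, edgeR adjusted p = 0.806). The ages overlapped for both. The signs of the small Val and Ile changes were not stable: scaling by TMM, a trimmed-mean method, within the mitochondrial tRNAs gave -0.0375 for Val and -0.0392 for Ile.

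All 5 log2 changes were above 0 (3 of 5 with that TMM scaling), with a median of 0.07, beside a median of -0.01 for the 17 other mitochondrial anticodons tested and 0.02 for all 69. The other mitochondrial tRNAs ran from -0.76 for mito_tRNA-Asp-GTC to 0.90 for mito_tRNA-Asn-GTT, and 10 of 17 passed the test, 5 higher and 5 lower. Among the 5 it was 1 of 5.

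**Figure D2:**
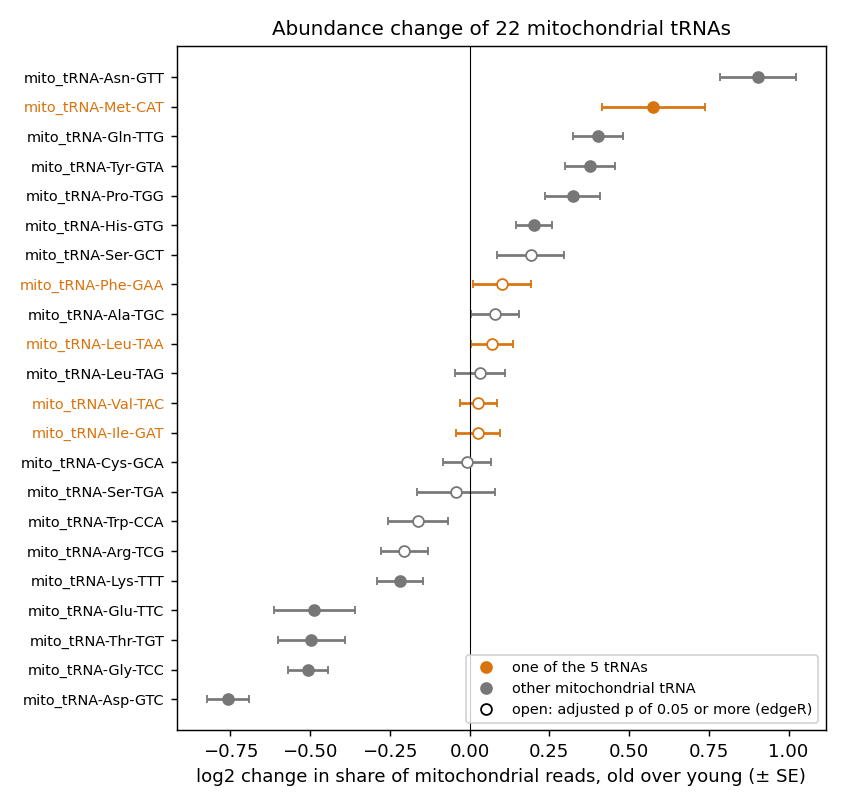
Log2 change in share of mitochondrial reads, old over young (± SE), of the 22 mitochondrial anticodons tested, with the 5 tRNAs in orange and open symbols for an adjusted p of 0.05 or more in edgeR. The Phe, Leu, Val and Ile tRNAs lie between 0.03 and 0.10, while mito_tRNA-Met-CAT at 0.58 is second to mito_tRNA-Asn-GTT at 0.90.

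Set against nuclear tRNA reads, mitochondrial reads were 10.05 ± 0.860 per 100 nuclear reads in old brains and 9.13 ± 0.493 in young brains (SD, n = 4 each, exact permutation p = 0.114, two-sided). On this scale mito_tRNA-Leu-TAA had 0.770 to 0.886 reads per 100 nuclear reads in old brains and 0.648 to 0.752 in young brains, with no overlap. mito_tRNA-Met-CAT had 0.0137 to 0.0231 in old brains and 0.00883 to 0.0113 in young brains, again with no overlap. The Phe, Val and Ile tRNAs overlapped. Of the 22 mitochondrial anticodons with enough reads 50% did not overlap between the ages on this scale, the Leu and Met tRNAs among them. In whole brain, a change in the number of cells rich in a tRNA and a change in its level per cell cannot be told apart.

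The mitochondrial tRNA whose log2 share was most like that of mito_tRNA-Met-CAT over the 8 brains was mito_tRNA-Pro-TGG (Pearson r = 0.97), followed by mito_tRNA-Gln-TTG (r = 0.93). Both were themselves higher in old brains, by 0.32 and 0.40 on the log2 scale (edgeR adjusted p = 0.0173 and 0.00453). For mito_tRNA-Val-TAC the most alike were mito_tRNA-Ala-TGC (r = 0.83) and mito_tRNA-Leu-TAG (r = 0.74), and for mito_tRNA-Phe-GAA they were mito_tRNA-Ala-TGC (r = 0.63) and mito_tRNA-Tyr-GTA (r = 0.47). mito_tRNA-Leu-TAA was closest to mito_tRNA-Ser-GCT (r = 0.64) and mito_tRNA-Asn-GTT (r = 0.62). mito_tRNA-Ile-GAT had no close match, its highest r being 0.52 with mito_tRNA-Trp-CCA and 0.35 with mito_tRNA-Tyr-GTA. These values describe the 8 libraries, which share a total of 100% within each brain, and each match is the highest of 17.

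The 3′ ends divided the 5 tRNAs into 4 whose reads mostly ended in CCA or CC and 1 with almost no such reads. The RNA had been oxidised and put through β-elimination, so that a read ending in CCA came from a charged tRNA and one ending in CC from an uncharged tRNA. Reads ending in C alone, or with no C, CC or CCA end, fall outside the charged share. The reads that ended in CCA or CC were 93.1 to 95.8% for mito_tRNA-Val-TAC, 90.7 to 94.0% for mito_tRNA-Ile-GAT, 89.97 to 94.7% for mito_tRNA-Phe-GAA and 80.7 to 92.6% for mito_tRNA-Leu-TAA over the 8 brains.

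mito_tRNA-Met-CAT had no CC end and no C end in any brain. Its reads in the 3′ end table were 366, 150, 256 and 342 in the old brains and 167, 49, 98 and 148 in the young brains, and of these all but 1 in old male 1 and 1 in young female 1 had no C, CC or CCA end. The 0 CC ends among 1576 reads allow a share of up to 0.190% over the 8 libraries, from counting error alone. No charged share could be given for this tRNA. Whether its molecules lacked the tail was not checked. Its 3′ end table also held 77.8 to 82.0% of its anticodon reads in old brains and 60.9 to 74.2% in young brains, with no overlap (exact permutation p = 0.0286, two-sided, the smallest p of this design). On this measure 18.2% of 22 mitochondrial anticodons did not overlap between the ages. The other 4 tRNAs had 99.3 to 99.8% of their reads in that table. The part of the reads without a C, CC or CCA end in the higher share of the Met tRNA in old brains was not tested.

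Within the 3′ end table, 5 of the 23 mitochondrial anticodons had reads without a C, CC or CCA end in the majority. They were mito_tRNA-Met-CAT, mito_tRNA-Ala-TGC, mito_tRNA-Asn-GTT, mito_tRNA-Cys-GCA and mito_tRNA-Gln-CTG, with medians of 97.7 to 100% over the brains. None of the 47 nuclear anticodons in the table did, the highest median there being 5.64%. The table held only part of the anticodon reads of mito_tRNA-Ala-TGC (29.5 to 39.7%), mito_tRNA-Cys-GCA (31.2 to 37.4%) and mito_tRNA-Asn-GTT (48.7 to 60.2%). The ends of their remaining reads are not known. Among these 5, mito_tRNA-Asn-GTT was higher in old brains by 0.90 (edgeR adjusted p = 0.00018). mito_tRNA-Ala-TGC gave 0.08 (edgeR adjusted p = 0.473) and mito_tRNA-Cys-GCA -0.01 (edgeR adjusted p = 0.917), and mito_tRNA-Gln-CTG had 1 to 9 reads and was not tested.

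**Figure D3:**
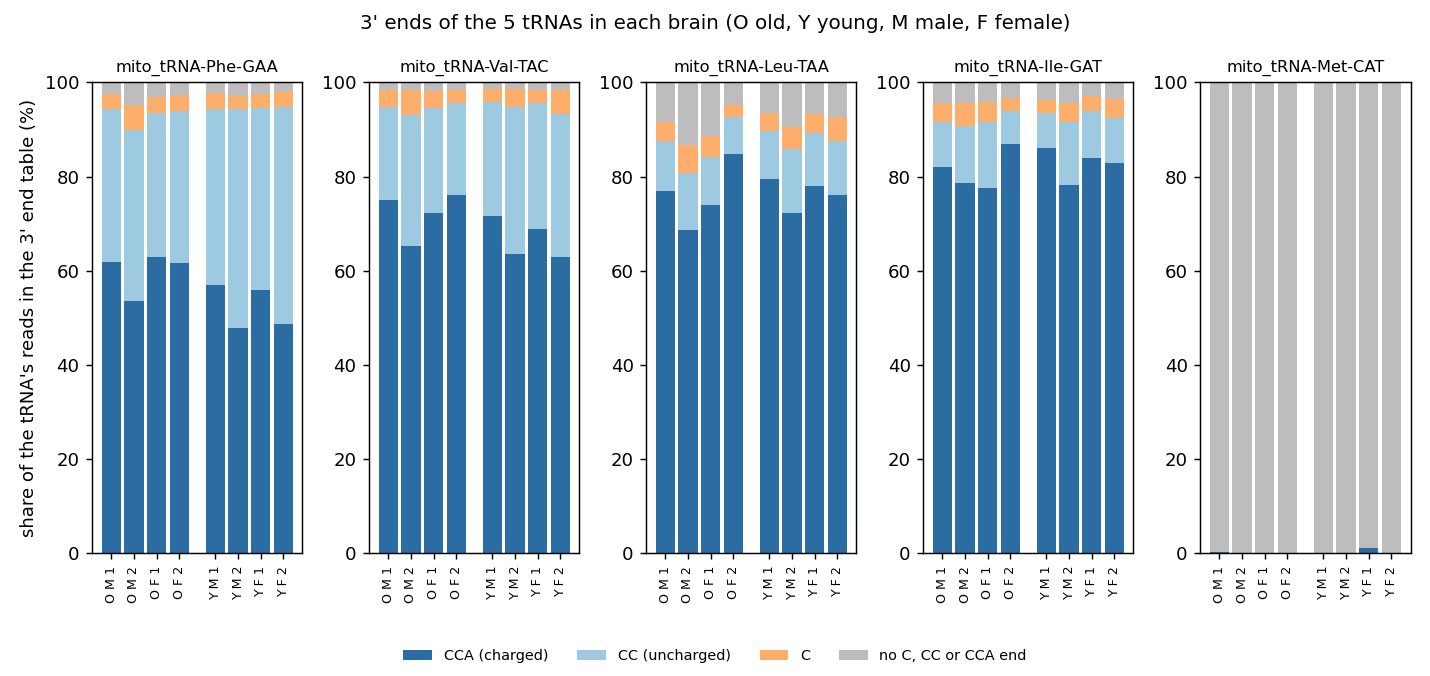
Share of each tRNA's reads in the 3′ end table (%), by end in each brain. Stacked bars show CCA, CC, C and no such end, with old brains at the left of each panel. CCA is the largest class in 8 of 8 brains for the Phe, Val, Leu and Ile tRNAs. Reads with no C, CC or CCA end fill 99.0 to 100% of the bars of mito_tRNA-Met-CAT.

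Among the Phe, Val, Leu and Ile tRNAs, reads without a C, CC or CCA end were most frequent for mito_tRNA-Leu-TAA. Its share of them was 9.44% ± 3.67 in old brains and 7.55% ± 1.38 in young brains (SD, n = 4 each). They were least frequent for mito_tRNA-Val-TAC, at 1.71% ± 0.118 in old brains and 1.53% ± 0.0914 in young brains (SD, n = 4 each). Reads ending in C alone were 2.56 to 6.07% for all 4 at both ages. The odds of a shorter end against a CCA or CC end were tested for these 4 with edgeR. Their log2 changes, old over young, were 0.33 ± 0.45 for Phe, 0.19 ± 0.38 for Ile, 0.16 ± 0.44 for Leu and 0.13 ± 0.49 for Val (SE, adjusted p = 0.510 to 0.792). None passed, and the limma fit called 0 as well. Unadjusted p was below the threshold of 0.05 for 0 of these 4, 0 of all 20 mitochondrial and 19 of 47 nuclear anticodons. Of all 67 anticodons tested 0% were called, though 51 of 67 were without old female 2, with 0 of the 4 tRNAs among them. The median was 0.18 for the 4 tRNAs, 0.44 for the 16 other mitochondrial anticodons and 1.01 for the 47 nuclear anticodons.

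The charged share, CCA over CCA plus CC reads, set the same 4 tRNAs in an order of their own. mito_tRNA-Ile-GAT and mito_tRNA-Leu-TAA were among the most charged of 17 mitochondrial anticodons, at ranks 2 to 4 and 3 to 4. mito_tRNA-Val-TAC was at ranks 6 to 14, and mito_tRNA-Phe-GAA at 14 to 17, near the bottom. The Leu tRNA was above the Val tRNA in 8 of 8 brains, by 8.76 to 19.6 percentage points, and the Val tRNA above the Phe tRNA in 8 of 8, by 8.96 to 16.3 points. The Ile tRNA was above the Leu tRNA in 7 of 8, and their ranges overlapped. Wilson 95% intervals on single values reached 0.383 to 1.55 points to either side, from counting error alone.

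mito_tRNA-Phe-GAA was charged to 65.4, 59.5, 67.3 and 65.5% in old male 1, old male 2, old female 1 and old female 2, against 60.5, 50.7, 59.3 and 51.3% in young male 1, young male 2, young female 1 and young female 2. Old male 2 was below young male 1, and the other 3 old brains were above all young brains. The mean was 64.4% ± 3.43 in old brains and 55.5% ± 5.14 in young brains (SD, n = 4 each). The log2 change in charged odds was 0.54 ± 0.32 (SE, edgeR adjusted p = 0.182), the highest of the 17 mitochondrial anticodons tested.

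mito_tRNA-Val-TAC was charged to 79.2, 70.1, 76.3 and 79.6% in the old brains and 74.7, 67.1, 72.0 and 67.3% in the young brains, in the same sample order. Again old male 2 fell among the young brains and the other 3 were above them. The mean was 76.3% ± 4.37 in old brains and 70.3% ± 3.71 in young brains (SD, n = 4 each). Its log2 difference, old over young, was 0.45 ± 0.35 (SE, edgeR adjusted p = 0.293).

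mito_tRNA-Leu-TAA was charged to 88.0, 85.1, 87.9 and 91.6% in the old brains and 88.6, 84.0, 87.5 and 86.9% in the young brains. Its charged odds differed by 0.20 ± 0.30 on the log2 scale (SE, edgeR adjusted p = 0.605), but by 0.0226 without old female 2, 0.0897 without young male 2 and 0.33 without old male 2, and by 0.00863 when CCA was set against all other ends. mito_tRNA-Ile-GAT was charged to 89.5, 86.7, 84.7 and 92.5% in the old brains and 92.2, 85.3, 89.2 and 89.6% in the young brains. Its charged odds differed by -0.09 ± 0.28 (SE, edgeR adjusted p = 0.847). The ages overlapped for both. The Ile change took the other sign, 0.0739 without old female 1 and 0.0704 without young male 1.

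None of the 4 tRNAs therefore passed the charging test, in which 1.56% of 64 anticodons were called, 1 in number, the nuclear tRNA-Cys-GCA. Without old female 2 it was 37 of 64, with none of the 4 among them. In the main fit the unadjusted p was below the threshold for 0 of the 4, 0 of all 17 mitochondrial and 21 of 47 nuclear anticodons. With the mitochondrial anticodons fitted alone, the Phe and Val tRNAs had unadjusted p of 0.0195 and 0.0450 (edgeR, adjusted p = 0.332 and 0.382). None of the 4 was called in the 17 alternatives, limma and exact permutation included. Among these, minima of 30 and 500 reads kept the same 64 anticodons and so only repeated the main fit. The median log2 change was 0.33 for the 4 tRNAs, 0.06 for the 13 other mitochondrial anticodons and -0.69 for the 47 nuclear anticodons, all 47 of which were below 0. Of the spike-in's CCA and CC reads, 78.8% ± 1.14 ended in CCA in old brains and 77.2% ± 0.468 in young brains (SD, n = 4 each). Its own shift, 1.57 points, ran in the direction of the Phe and Val tRNAs. Its part in their values was not tested beyond the fit relative to the spike-in, which called none of the 4.

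Each mitochondrial tRNA was next set against the nuclear tRNAs for the same amino acid in the same brain, which asks whether its charging changed differently from theirs. Cytosolic and mitochondrial tRNAs are mostly charged by different enzymes. Nuclear leucine tRNAs, summed over 5 anticodons, were charged to 50.7, 53.5, 41.8 and 65.5% in the old brains and 69.9, 60.0, 64.8 and 59.1% in the young brains. Old female 1 was the lowest and old female 2 lay among the young brains, a pattern that the nuclear valine and isoleucine tRNAs had as well. The nuclear means were 58.6% ± 4.43 in old brains and 62.6% ± 6.35 in young brains for Phe, 59.5% ± 10.4 in old and 69.5% ± 3.67 in young for Val, and 56.5% ± 10.2 in old and 67.5% ± 4.01 in young for Ile (SD, n = 4 each).

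**Figure D4:**
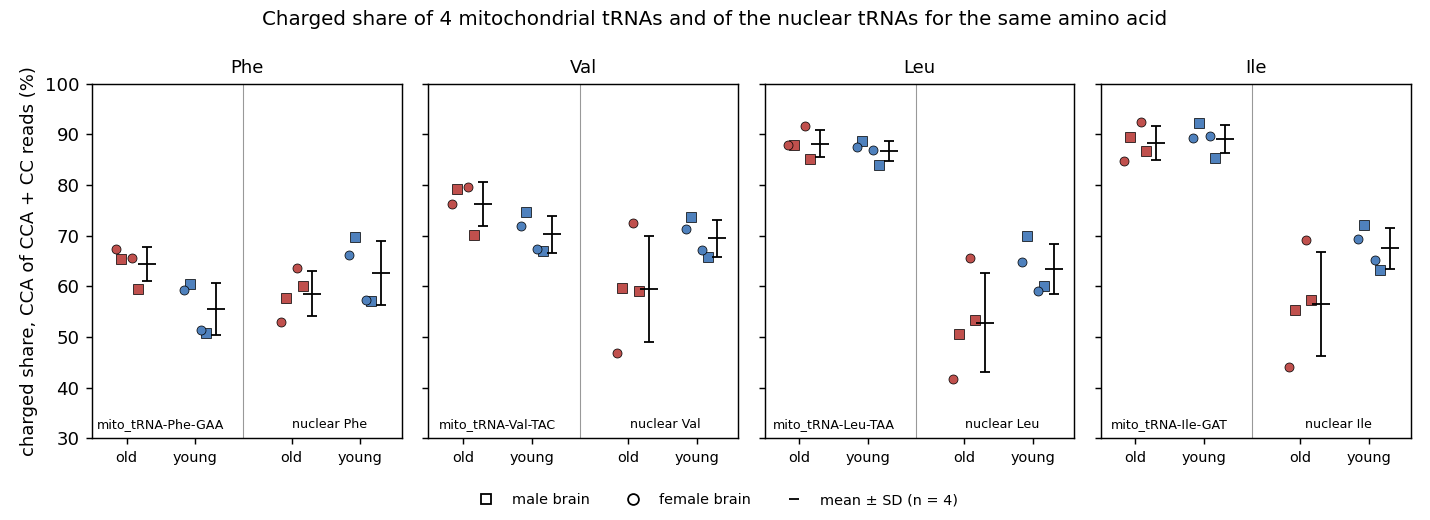
Charged share (CCA of CCA plus CC reads, %, axis from 30) of the 4 mitochondrial tRNAs and of the nuclear tRNAs for the same amino acid, with 1 point per brain, squares for males, circles for females, and the mean ± SD (n = 4). The Leu and Ile mitochondrial tRNAs lie at 84.0 to 92.5% at both ages, above their nuclear counterparts in every brain.

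The difference in log2 charged odds, mitochondrial minus nuclear, was higher in every old brain than in every young brain for all 4 tRNAs. For mito_tRNA-Val-TAC it was 1.37, 0.70, 1.87 and 0.57 in the old brains and 0.07, 0.09, 0.05 and 0.01 in the young brains. The young brains were close together, near equal charging of the mitochondrial and nuclear valine tRNAs, and the old brains were spread well above them. The change was 1.07, the largest of the 17 mitochondrial anticodons compared.

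For mito_tRNA-Phe-GAA the difference was 0.47, -0.04, 0.87 and 0.13 in the old brains and -0.59, -0.38, -0.42 and -0.35 in the young brains. The mitochondrial Phe tRNA was thus less charged than the nuclear one in 4 of 4 young brains and more charged in 3 of 4 old brains. The change was 0.79. For mito_tRNA-Leu-TAA the difference was 2.83, 2.32, 3.33 and 2.52 in the old brains and 1.74, 1.81, 1.93 and 2.20 in the young brains, a change of 0.83. For mito_tRNA-Ile-GAT it was 2.77, 2.28, 2.82 and 2.47 in the old brains and 2.18, 1.75, 1.87 and 2.20 in the young brains, a change of 0.58. The mitochondrial tRNA was the more charged in 8 of 8 brains for both leucine and isoleucine.

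The exact permutation test over 70 relabellings gave p = 0.0286 for each of the 4, two-sided and the smallest it can give, and an adjusted p of 0.0694 over the 17 anticodons, so 0% were called. Of the 17, 7 had that p, which is also the count whose ages did not overlap, 41.2% of them, and 4 of these 7 were the tRNAs here. The limma fit called 12 of 17, with Val (adjusted p = 0.00926), Leu and Phe (adjusted p = 0.0274 each) among them and Ile outside (adjusted p = 0.0736). Changes were above 0 for all 17, with a median of 0.81 for the 4 tRNAs and 0.75 for the other 13. Without old female 1, whose nuclear tRNAs were the least charged, the changes were 0.82 for Val, 0.64 for Leu, 0.62 for Phe and 0.51 for Ile. Without old male 2 or without old female 2 all 4 passed the exact permutation test (adjusted p = 0.0486), as did 10 of the 17 anticodons in each case. There each of the 4 still had an exact permutation p of 0.0286, the smallest possible. The adjusted p fell because more of the 17 anticodons reached that value. With any 1 young brain left out instead, each of the 4 had an exact permutation p of 0.0571 (adjusted p = 0.146 to 0.194). In the same test the adjusted p was 0.0694 for each without old male 1, and 0.081 to 0.139 without old female 1. With all 8 brains and CCA set against all other ends, the changes were 1.20 for Val, 0.92 for Phe, 0.84 for Leu and 0.67 for Ile. The exact permutation test then gave p = 0.0571 for Leu and 0.0286 for Val, Phe and Ile (adjusted p = 0.0971 to 0.121).

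**Figure D5:**
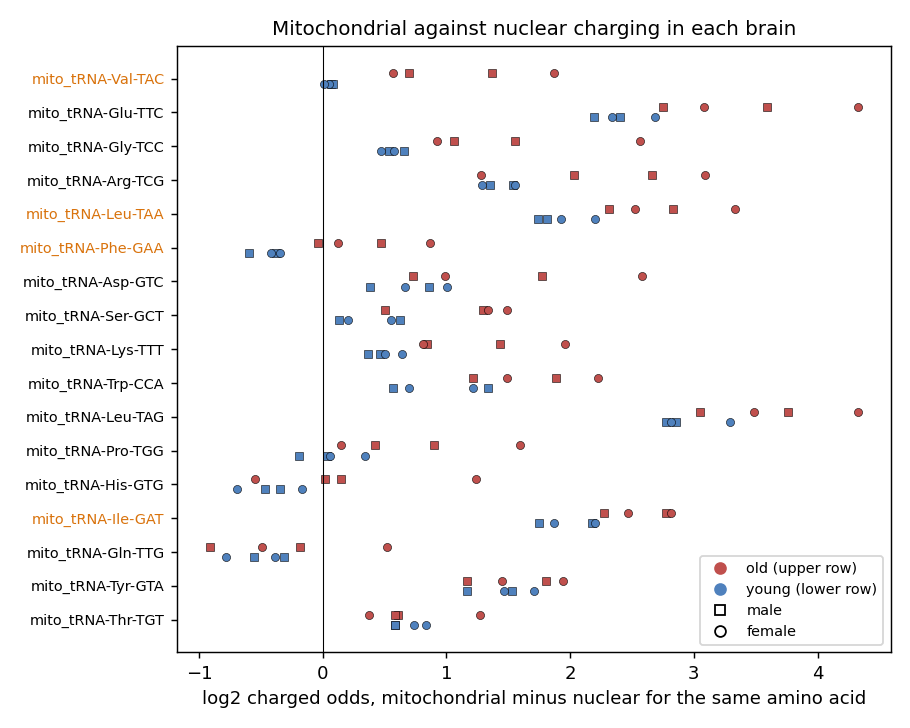
Log2 charged odds, mitochondrial minus nuclear for the same amino acid, in each brain for 17 mitochondrial anticodons, old brains in the upper and young brains in the lower row of each, squares for males, circles for females, and the 4 tRNAs in orange. Old and young points do not overlap for any of the 4, and mito_tRNA-Val-TAC at the top has the largest change, 1.07, with the next at 1.03.

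The age change was also compared between the sexes, with 2 brains of each age and sex. The log2 change in females minus that in males ran from -0.33 for mito_tRNA-Met-CAT to 0.15 for mito_tRNA-Phe-GAA in abundance and from 0.13 to 0.37 over the 4 tRNAs in charging. No interaction passed in edgeR (adjusted p = 0.926 for each of the 5 in abundance and 0.993 for each of the 4 in charging). None of these tRNAs had an unadjusted p below the threshold, which 2 of 69 anticodons had in abundance and 0 of 64 in charging.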

How the data were processed

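The study extracted RNA from brains under mildly acidic conditions, oxidised it and put it through β-elimination, added a bacterial tRNA-Lys spike-in and sequenced size-selected tRNA. Reads were trimmed with cutadapt 3.5. The deposited tables hold raw read counts per anticodon, and counts per tRNA transcript or cluster and 3′ end, that the authors made with mim-tRNAseq 1.3.8. The 3′ end counts were summed here to anticodons. The methods and the header differ on the identity at which tRNAs were clustered (the header gives 0.97). By the header's wording the counts are of uniquely aligned reads. How reads of near-identical tRNAs were assigned was not checked. No sequences were used here.

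Groups came from the sample titles. Levels were compared by the quasi-likelihood test of edgeR 4.0.16 in R 4.3.3, with the mitochondrial read total as library size for mitochondrial anticodons and the nuclear total for nuclear ones, over 69 anticodons with 10 or more reads in 4 or more samples. Charging was tested as an end by age term with 1 effect per sample, over 64 anticodons with 100 or more CCA plus CC reads in every sample. Shorter ends needed 100 reads over all ends and, a condition added after the data were seen, at least 1 read of each kind in every sample, which left out only mito_tRNA-Ser-TGA besides. Mitochondrial minus nuclear log2 odds (0.5 added to each count) had a two-sided exact permutation test. P-values were adjusted by Benjamini-Hochberg over every anticodon tested, with a threshold of 0.05. limma 3.58.1, DESeq2 1.42.0, other scalings and filters, sex and replicate terms, and each brain left out were alternatives. The abundance and charging fits were also run on simulated counts with separate noise for each anticodon. Shifts shared by many anticodons in the same brain were not simulated.

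All 5 tRNAs were named with their values, and beside each the 2 most alike mitochondrial anticodons. Others were named at the ends of a range, as counterparts or behind a count of 5 or fewer. The tRNAs and lists were chosen with earlier results of these data known.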

Additional observations from a re-analysis of the deposited data

Results flagged for a closer look

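In 5 of 44 sets of 4 brains of 1 age, 1 brain stood far from the other 3 by Dixon's criterion, which chance gives in about 1 of 20. Old male 2 had 5.30% of its mito_tRNA-Phe-GAA reads ending in C alone, against 3.19 to 3.504% in the other old brains. Old female 2 had the lowest share of mito_tRNA-Ile-GAT in mitochondrial reads, 4.95%, against 5.15 to 5.17%. Old female 2 also had the fewest mito_tRNA-Ile-GAT reads without a C, CC or CCA end, 3.31%, against 4.27 to 4.42%. For mito_tRNA-Met-CAT the share of such reads was 99.7% in old male 1 and 99.0% in young female 1, against 100% in the other brains of each age, a gap of 1 read in each case.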

How the results depend on the processing

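Of the 5 tRNAs, the number called in abundance was 1 and dropped to 0 with the replicate block and in the exact permutation test, and lay between 0 and 1 over the 8 fits that left out 1 brain (0 without young male 1 or young female 1). Each time it was mito_tRNA-Met-CAT that was lost, and the cause was not tested. The numbers of anticodons called in all were 17 of 69 in the main test, 13 with the block, 10 without young female 1 and 0 in the exact permutation test, whose smallest p is 0.0286. Small changes that took the other sign were, in abundance, mito_tRNA-Val-TAC at -0.0375 and mito_tRNA-Ile-GAT at -0.0392 with TMM within each kind of tRNA. The median change of the mitochondrial anticodons was 0.03, against -0.03 with that scaling and 0.14 with TMM over all tRNAs. With 1 brain left out Val ran from -0.0109 (without old female 1) to 0.0546 and Ile from -0.0233 (without young male 2) to 0.0611. In charging, mito_tRNA-Ile-GAT ran from -0.31 to 0.0739 with 1 brain left out, and the count of tRNAs called stayed at 0 in all alternatives, as it did for shorter ends. mito_tRNA-Leu-TAA charging ran from 0.0226 (without old female 2) to 0.33 (without old male 2), and was 0.0662 relative to the spike-in and 0.00863 against all other ends. Over all 64 anticodons the charging count was 1, but 27 in limma relative to the spike-in and 37 without old female 2. Over all 67 anticodons the shorter-ends count was 0, but 51 without old female 2. For shorter ends mito_tRNA-Leu-TAA was -0.0563 with reads ending in C alone, and ran from -0.0620 (without old male 2) to 0.46 with 1 brain left out. For mitochondrial minus nuclear charging the count of tRNAs called was 0 in the main test, 3 in limma, and between 0 and 4 with 1 brain left out (4 without old male 2 or old female 2, where 10 of all 17 anticodons were called).

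Whether the replicate numbers pair the brains could not be told from the libraries. Deviations of same-sex, same-numbered brains from their age means correlated at -0.33 to 0.51 in abundance and -0.59 to 0.76 in charging, and 2 of 4 old brains correlated best with their own number in each. With the replicate block, charging and shorter ends kept 0 calls among the tRNAs, and the sign-flip test of mitochondrial minus nuclear charging, whose smallest p is 0.125, gave 0. The 66 to 469 reads of mito_tRNA-Met-CAT limit its abundance.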
